A study of Mus musculus with 5 samples.

Results

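SR splicing factors are the serine- and arginine-rich RNA-binding proteins encoded by the Srsf genes, and transcripts of 10 of them, Srsf1 to Srsf7, Srsf9, Srsf10 and Srsf11, were followed in mouse germinal center B cells. They were taken by gene name, with earlier results of these data known, from a table of 38924 genes that lists them in capitals (SRSF1, SRSF2, SRSF3, SRSF4, SRSF5, SRSF6, SRSF7, SRSF9, SRSF10 and SRSF11). All 10 had a row of their own, and all 10 were among the 13242 genes with enough signal to be tested, a mean of at least 10 normalized counts. RNA had been sequenced from splenic germinal center B cells, the antigen-activated B cells that mutate and select their antibody genes, sorted as eGFP+ cells 7 days after sheep red blood cells were injected into mice 12 weeks old. The 3 control libraries (WT) came from Cg1-Cre mice, and the 2 others (DKO) came from littermates of genotype relbfl/flnfkb2fl/flCg1-Cre, in which Relb and Nfkb2 are both floxed. Both groups thus carried the Cre transgene. Cg1-Cre is driven by germline transcription of the IgG1 heavy chain gene, so recombination starts only around germinal center entry and can be incomplete. RELB and the p52 product of Nfkb2 form the main dimer of the alternative NF-κB pathway, and the comparison asks which transcripts change when both are lost. Each library is counted as 1 replicate. The labels do not say how many animals each was made from, so p-values measure the spread between these libraries. Values of single libraries follow the order of replicates 1, 2 and 3 in WT and 1 and 2 in DKO.

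SR proteins carry RNA recognition motifs at one end and a tail of arginine-serine repeats at the other. They bind enhancer sequences in exons and help U1 and U2 particles to find the nearby splice sites, and SRPK and CLK kinases control their location and activity by phosphorylating the tail. Most SR genes also limit their own output through ultraconserved exons that bring in a premature stop codon and send the transcript to nonsense-mediated decay. In B cells, splice choice decides among other things between membrane and secreted immunoglobulin, and activated lymphocytes change the splicing of many surface receptors.

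The libraries held 33953377 to 57582464 reads, of which mitochondrial ribosomal RNA took 47.0% to 70.9%. Reads outside the mitochondrial genome came to 15397317 to 15477691 in WT and to 17601096 and 17701685 in DKO. Relb stood at 136, 171 and 117 normalized counts for WT compared with 56.9 and 10.7 for DKO. Nfkb2 stood at 657, 601 and 445 among WT libraries, with DKO at 298 and 73.5. The targeted transcripts were thus lower in both DKO libraries, with more left in DKO replicate 1. All 8 germinal center B cell markers were present in every library, with a summed level of 67137 to 80996 in WT and of 70636 and 66311 in DKO. By log2 fold change 6 of the 8 were below 0, and in Rgs13 and Cd79a both DKO values lay below all WT values, a pattern found in 11% of genes tested. Rgs13, a regulator of G protein signalling, had 8381, 3777 and 4727 normalized counts for WT compared with 1476 and 1990 for DKO (log2 fold change −1.63 ± 0.33, limma adjusted p = 0.768). WT replicate 2 and DKO replicate 1 had the highest T cell and naive B cell marker sums. The 10 T cell markers summed to 1310 and 713 normalized counts in those libraries, against 142 and 66.3 in WT replicates 1 and 3 and 164 in DKO replicate 2. The 6 naive B cell markers found in the table summed to 22441 and 19559 there, against 7618, 11540 and 9585. Plasma cell and erythroid marker sums separated by genotype. The 5 plasma cell markers came to 8453 to 11327 in WT and to 6837 and 7915 in DKO. Singly, only Xbp1 of them had both DKO values below all WT values. Prdm1 was high in WT replicate 1 alone (926, against 113 to 162 in the other libraries). The 4 erythroid markers found in the table came to 14.4 to 18.2 in WT and to 101 and 26.4 in DKO. The 5 NK cell markers, like those of T and naive B cells, had their highest sums in WT replicate 2 (300) and DKO replicate 1 (82.3). Their sums were 13.9 and 0.961 in WT replicates 1 and 3 and 23.1 in DKO replicate 2. Sums of 8 myeloid markers (163 to 1192 in WT, 1197 and 505 in DKO) overlapped between the groups. The part of these cells in the results was not tested. Some of the values below are also given without WT replicate 2 and DKO replicate 1. In bulk RNA, a change in cell mixture and a change in RNA per cell cannot be told apart.

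The sequences just upstream of 3 members are shown because these were the members whose DKO values lay above every WT value and because the factors lost in DKO bind DNA. Each is the 250 bases before a transcription start in RefSeq, build GRCm38.p6, another build than the authors' mm9, written 5′ to 3′ on the gene's strand. Capitals mark every run of GGG, any 5 bases and CC on either strand, a loose form of the κB site that NF-κB dimers bind. Neighbouring matches may overlap. For Srsf11, which has more than 1 annotated start, the window of the upstream start is shown. It held 4 matches, and the window not shown held 1.
Srsf3, GRCm38.p6, chr17:29032410-29032659, plus strand: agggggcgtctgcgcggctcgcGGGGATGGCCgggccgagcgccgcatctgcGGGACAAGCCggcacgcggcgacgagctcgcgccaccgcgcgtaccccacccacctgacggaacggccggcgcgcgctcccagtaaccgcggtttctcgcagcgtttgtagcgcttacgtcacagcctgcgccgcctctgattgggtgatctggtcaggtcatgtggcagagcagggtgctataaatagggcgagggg
Srsf5, GRCm38.p6, chr12:80945249-80945498, plus strand: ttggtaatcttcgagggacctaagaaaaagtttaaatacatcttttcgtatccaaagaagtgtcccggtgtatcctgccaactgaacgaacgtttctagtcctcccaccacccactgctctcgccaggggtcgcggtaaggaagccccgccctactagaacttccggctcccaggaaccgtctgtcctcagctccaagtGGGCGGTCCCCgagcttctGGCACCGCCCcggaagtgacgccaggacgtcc
Srsf11, GRCm38.p6, chr3:158036607-158036856, minus strand: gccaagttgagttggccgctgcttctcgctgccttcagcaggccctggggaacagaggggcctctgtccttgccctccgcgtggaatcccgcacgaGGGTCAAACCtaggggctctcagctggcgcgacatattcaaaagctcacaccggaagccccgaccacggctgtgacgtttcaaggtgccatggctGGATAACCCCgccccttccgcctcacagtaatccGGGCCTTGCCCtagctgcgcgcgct
RefSeq had a start for all 10 members, with 13 windows in all. Matches to the loose form were present upstream of 9 of the 10 genes (12 of 13 windows), Srsf7 being the one without, and in 45.8% of 32851 windows over all genes. The stricter κB consensus was found upstream of none of the 10, where 7.25% of all windows held it. With the 50 bases after the start included, 1 member, Srsf9, held it, against 8.46% of all windows. The windows were shortened, and the motif forms and printed members chosen, after matches and values had been seen. The letters TATAAA, the core of a TATA box, occurred upstream of 2 members, Srsf2 and Srsf3, and in 12.4% of all windows. Members' windows were rich in G and C, with a median of 68.4% and a range of 56.8% to 78.0%, against a median of 52.4% over all windows. The shares of all windows with a match were not taken from windows of like G and C content. They held 16 to 37 CpG dinucleotides, with a median of 33 against 6 over all windows. A match is a run of letters and not a bound site.

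Germinal center B cells held SR transcripts at high levels, with a wide gap between the most and the least abundant members. By normalized count, 8 of the 10 ranked above the 90th percentile of the genes tested, led by Srsf3 at the 98.6 and Srsf1 at the 98.3 percentile. Srsf4 was at the 62.8 and Srsf9 at the 43.9 percentile. Levels of different genes were compared as normalized counts per kilobase of annotated exon, with lengths from GENCODE M21. Each length joins the exons of all listed transcripts of a gene, retained introns included. It was 7.9 kb for Srsf3 and 8.45 kb for Srsf11, against 2.96 kb for Srsf2. The order below, its gaps and the shares per kilobase given later depend on these lengths. On this scale the order of means over the 5 libraries was Srsf2 (1893), Srsf5 (1777), Srsf7 (1623), Srsf1 (1590), Srsf3 (1237), Srsf11 (740), Srsf10 (706), Srsf6 (545), Srsf4 (141) and Srsf9 (109). Neighbours within the leading 5 did not separate. Srsf2 exceeded Srsf5 in 3 of 5 libraries, and the ranges of each adjacent pair from Srsf2 down to Srsf3 overlapped. Srsf3 was above Srsf11, Srsf10 above Srsf6 and Srsf6 above Srsf4 in 5 of 5 libraries without overlap, while Srsf11 and Srsf10 overlapped, as did Srsf4 and Srsf9.

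**Figure D1:**
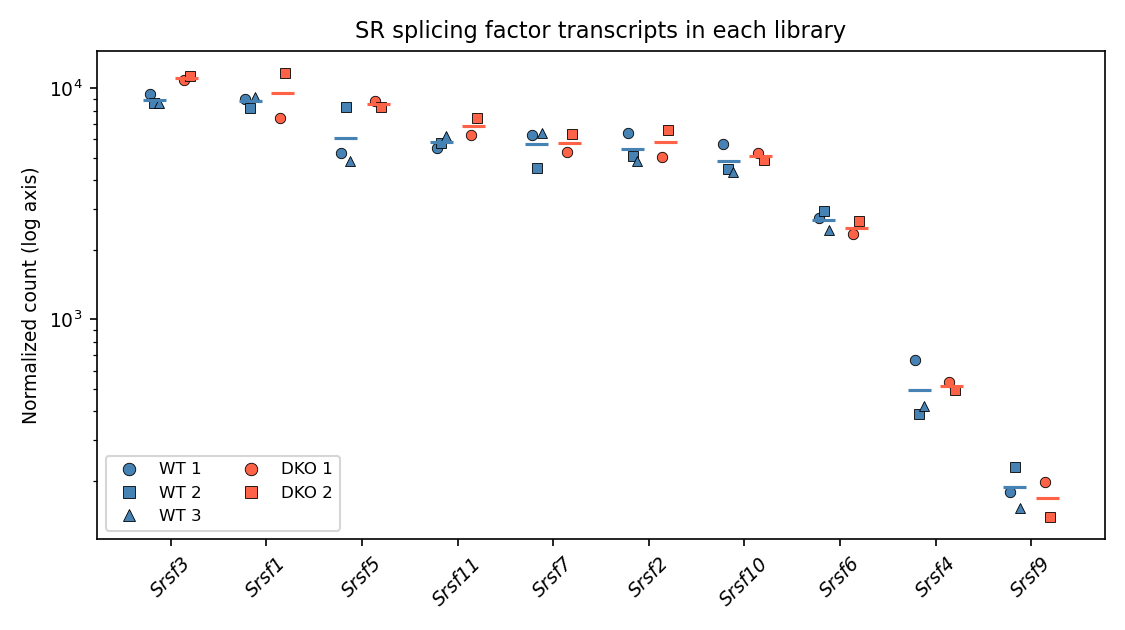
Normalized count of each SR splicing factor in each library on a log axis, genes ordered by their WT mean; symbols are single libraries (blue WT, red DKO) and short bars are group means. Srsf3 is highest in WT with a mean of 8902 and Srsf9 lowest with 188, and the DKO points lie above all WT points for Srsf3, Srsf5 and Srsf11.

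Members were tested with limma on log2(value + 1) in a fit over all genes, with Benjamini-Hochberg adjustment. No SR splicing factor passed an adjusted p of 0.05, and 0% of all genes tested did. Even the targeted genes did not pass, at log2 fold changes of −2.43 ± 0.63 for Relb and −1.91 ± 0.51 for Nfkb2 (limma adjusted p = 0.823 for each). At an unadjusted p under 0.05 the count of SR members was 0 of 10 as well, against 6.06% of all genes tested (803 genes, with 3.69% higher and 2.37% lower in DKO). EdgeR's quasi-likelihood test on recovered reads also gave 0 members at either threshold, and so did DESeq2, which called 29 other genes (0.219% of those tested). Log2 fold changes were above 0 in 8 members and below 0 in 2, with a median of 0.09 where the median over all genes was 0.0013 and 50% of genes had a value above 0. Under quantile or TMM scaling the split was again 8 and 2, and with a correction for length and GC content it was 6 and 4. It was 7 and 3 without WT replicate 2 and 6 and 4 without DKO replicate 2. Without both WT replicate 2 and DKO replicate 1 it was 6 and 4, with a median of 0.15. The members' fold changes had a median absolute log2 value of 0.11 and a largest one of 0.53. The median over all genes tested was 0.27. The members' spread was smaller too, with a median SE of 0.22 against 0.33 over all genes tested. Their median log2 range within WT was 0.40 against 0.68. Members were not compared with genes of like level. In 3 members, Srsf3, Srsf5 and Srsf11, both DKO values lay above all WT values, a pattern found in 12.5% of all genes tested. In no member did both lie below, a pattern found in 11% of genes.

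Srsf3 encodes the smallest SR protein, which pairs splicing with export of the mRNA through NXF1. It stood at 9479, 8603 and 8626 normalized counts in the WT libraries, against 10805 and 11325 in the DKO libraries. These are 8854, 8338 and 8976 reads against 12338 and 13711. The WT libraries lay within 1.1-fold and the DKO libraries within 1.05-fold of each other, and the gap between the groups was wider than either spread. The log2 fold change was 0.31 ± 0.19 (SE), or 1.24-fold with a 95% interval of 0.92 to 1.68 (adjusted p = 0.871, limma). Without WT replicate 2 and DKO replicate 1 it was 0.32. Reads may be shared with the processed pseudogene Gm12355, also named Srsf3-ps, which had a row of its own at 36.4, 77.4 and 48.0 for WT compared with 52.5 and 50.4 for DKO.

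Srsf7, the close relative of Srsf3 that also carries a zinc knuckle and takes part in mRNA export, did not share this pattern. It was at 6246, 4505 and 6428 among WT libraries, with DKO at 5305 and 6326. WT replicate 2 was the lowest library and the groups overlapped. The log2 fold change was 0.03 ± 0.23, with a 95% interval of 0.72-fold to 1.46-fold (adjusted p = 0.981, limma). The ratio of Srsf3 to Srsf7 normalized counts, which does not depend on library scaling, was 1.52, 1.91 and 1.34 in WT and 2.04 and 1.79 in DKO. These ratios overlapped between the groups (exact two-sided permutation test, p = 0.4, where 0.2 is the smallest value this design allows). It is 1 of 7 ratios between members, chosen after their values were available, none of which can fall below 0.2.

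Srsf5, whose transcript is known to respond to growth signals, had the largest fold change of the family. It stood at 5265, 8250 and 4818 normalized counts in the WT libraries, against 8787 and 8318 in the DKO libraries. The lower DKO library exceeded the highest WT library, replicate 2, by a narrow margin, while WT replicates 1 and 3 lay well below. The mean was 6111 ± 1866 (SD, n = 3) in WT and 8553 ± 331 (n = 2) in DKO, a log2 fold change of 0.53 ± 0.26, or 1.44-fold with an interval of 0.96 to 2.16 (limma adjusted p = 0.839). WT replicate 2 set much of the WT spread: without it the log2 fold change was 0.76 (unadjusted p = 0.00854, adjusted p = 0.486). Without both WT replicate 2 and DKO replicate 1 it was 0.72. Srsf5 was thus higher in both libraries with the high lymphocyte markers, and also in DKO replicate 2, whose T cell markers summed to 164. The part of those cells in the Srsf5 level was not tested.

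Srsf4 and Srsf6 belong to the same subgroup as Srsf5 and encode proteins with a long arginine-serine tail. Srsf6 was at 2745, 2929 and 2434 for WT compared with 2333 and 2660 for DKO, with a log2 fold change of −0.11 ± 0.19 and an interval of 0.68-fold to 1.25-fold (adjusted p = 0.939, limma). Srsf4 was at 666, 389 and 424 among WT libraries, with DKO at 536 and 494. Its log2 fold change was 0.10 ± 0.28 (interval 0.69-fold to 1.67-fold). Both overlapped between the groups, and the lead of WT replicate 1 over the other WT libraries gave Srsf4 a 1.71-fold range within WT. The ratio of Srsf5 to Srsf6 was 1.92, 2.82 and 1.98 in WT and 3.77 and 3.13 in DKO. Both DKO ratios lay above all WT ratios, with a log2 difference of 0.64 (exact two-sided permutation test, p = 0.2, the smallest this design allows). The pair Srsf5 and Srsf4 gave ratios of 7.91, 21.2 and 11.4 in WT and 16.4 and 16.8 in DKO, which overlapped.

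Srsf1, the founding member of the family and a proto-oncogene, differed more between the DKO libraries than between genotypes. It stood at 8958, 8236 and 9123 in the WT libraries, against 7451 and 11634 in the DKO libraries. The WT libraries agreed within 1.11-fold, and DKO replicate 1 was the lowest and DKO replicate 2 the highest of all 5 libraries, 1.56-fold apart. The log2 fold change was 0.09 ± 0.24, with an interval of 0.73-fold to 1.54-fold (adjusted p = 0.961, limma), and it was −0.23 without DKO replicate 2 and 0.41 without DKO replicate 1. Srsf9, the shorter relative of Srsf1, had 159 to 226 reads per library, the fewest of the family. Its values were 179, 231 and 153 in WT and 198 and 140 in DKO, with a log2 fold change of −0.15 ± 0.32 and an interval of 0.54-fold to 1.49-fold, the widest of the family on the log2 scale.

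Srsf2, a nuclear SR protein that is recurrently mutated in human myeloid neoplasms, stood at 6373, 5090 and 4859 for WT compared with 5056 and 6620 for DKO. The groups overlapped, with 1 high library in each, and the log2 fold change was 0.10 ± 0.22 (interval 0.76-fold to 1.51-fold). In GENCODE M21, exons of Srsf2 overlap those of Mettl23 by 460 bases and those of Mfsd11 by 288 bases on the opposite strand. Without known strand use, reads there cannot be assigned to one gene. Mettl23 stood at 242, 407 and 303 among WT libraries, with DKO at 374 and 404, far below Srsf2. Exons of Srsf4 overlap the opposite-strand transcript Gm12992 by 1532 bases, and that gene ranged from 16.3 to 56.9 normalized counts over the 5 libraries. Exons of Srsf1 overlap Gm11508 by 98 bases, and that gene had 0 to 4 reads per library.

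Srsf10 and Srsf11 encode the less typical SR proteins of the set. SRSF10 is a splicing repressor when dephosphorylated in heat shock and mitosis, and its transcript was at 5754, 4471 and 4325 in the WT libraries, against 5259 and 4906 in the DKO libraries. Both DKO values lay inside the WT range, with a log2 fold change of 0.08 ± 0.21 (interval 0.76-fold to 1.46-fold). Srsf11 was at 5513, 5790 and 6200 for WT compared with 6295 and 7454 for DKO. DKO replicate 1 was barely above WT replicate 3, and DKO replicate 2 was the highest library. The log2 fold change was 0.23 ± 0.19, or 1.18-fold with an interval of 0.87 to 1.59 (adjusted p = 0.88, limma). Without WT replicate 2 and DKO replicate 1 it was 0.35. Srsf12, a family gene outside the set, had 0 to 6 reads per library and was not tested.

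**Figure D2:**
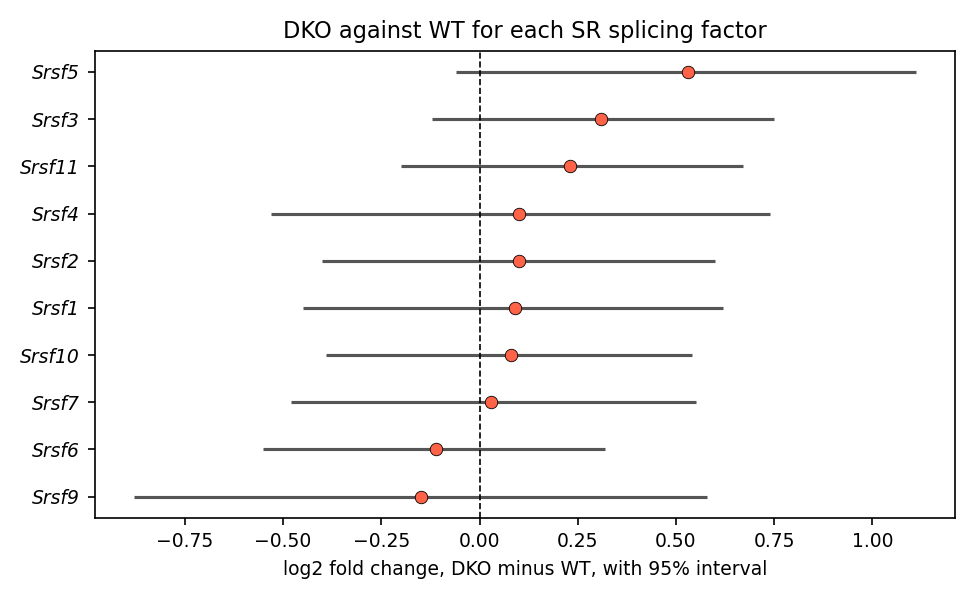
Log2 fold change (DKO minus WT) of each SR splicing factor in limma's fit, with points for the estimate and lines for the 95% interval; the dashed line marks no change. All 10 intervals include 0, and Srsf5 at 0.53 and Srsf3 at 0.31 lie farthest to the right.

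The intervals show what sizes of change these 5 libraries leave possible. For every member but Srsf5 the 95% interval ended at or below 1.68-fold higher in DKO, and for Srsf5 it reached 2.16-fold. At the lower end the intervals reached 0.54-fold for Srsf9 and lay at 0.68-fold or above for the others. An adjusted p above the threshold does not show that the groups were alike.

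Single libraries moved the members in different directions, so that no library was high for all of them. DKO replicate 2 was the highest library for 4 members (Srsf1, Srsf2, Srsf3 and Srsf11), WT replicates 1 and 2 for 2 each, and WT replicate 3 and DKO replicate 1 for 1 each. WT replicate 3 was the lowest for 3 members and so was WT replicate 2. Summed over the 10 members, normalized counts were 51178, 48494 and 47390 in WT and 52024 and 59877 in DKO. As a share of reads outside the mitochondrial genome, SR transcripts took 0.310%, 0.304% and 0.319% in WT and 0.336% and 0.412% in DKO. Both DKO libraries lay above WT on either scale, by a narrow margin for DKO replicate 1. The group means of the share were 0.311% ± 0.00733 (SD, n = 3) and 0.374% ± 0.0539 (n = 2). By their means over the 5 libraries, Srsf3, Srsf1 and Srsf5 were the largest terms of this sum, in which longer transcripts weigh more.

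**Figure D3:**
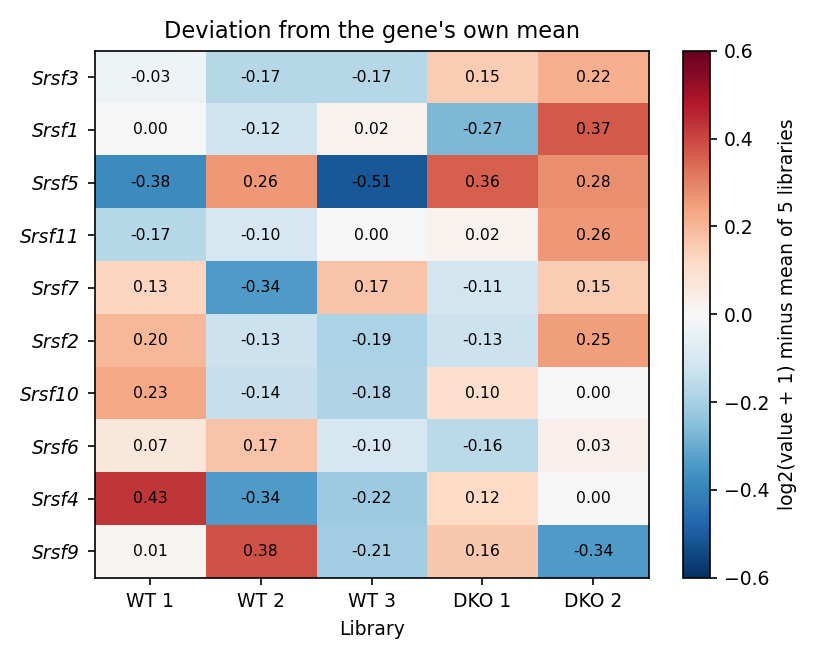
Deviation of log2(value + 1) of each SR splicing factor from its own mean over the 5 libraries (columns), genes in the same order as by WT mean; red is above and blue below the mean, with the value printed in each cell. Srsf5 is below its mean in WT replicates 1 and 3 (−0.38 and −0.51) and above it in the other libraries, and Srsf1 differs in sign between DKO replicate 1 (−0.27) and DKO replicate 2 (0.37).

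The make-up of the family varied between libraries, with Srsf5 as the member whose share varied most in percentage points. Of the summed counts per kilobase, Srsf5 took 12.8%, 21.2% and 12.8% in WT and 21.3% and 17.5% in DKO. Srsf2 took 16.5% to 20.8% and Srsf7 13.0% to 19.2% over the 5 libraries, Srsf1 12.6% to 17.1%, and Srsf3 11.1% to 13.2%. Srsf3 was the steadiest of these, and its share was 11.1% to 11.6% in WT and 13.2% and 12.0% in DKO. Counts were made per gene and pool the isoforms of each. GENCODE M21 lists 4 to 19 transcripts per member, and for 9 of the 10 at least 1 of them is annotated as a target of nonsense-mediated decay. Srsf11 has 19 transcripts with 11 retained introns. Productive and unproductive isoforms of these genes were therefore not separated.

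Genes that act with SR proteins were compared as lists. SR-related proteins, which share arginine-serine tails but mostly lack the SR layout, had values above 0 in 22 of 25 tested, with a median log2 fold change of 0.20 against 0.09 for the SR members. Scaling by TMM or quantiles left 22 above 0 and the correction for length and GC content, which could be made for 24 of them, left 19 above and 5 below. Without both WT replicate 2 and DKO replicate 1, 20 were above and 5 below, with a median of 0.18. In the main fit none passed over all genes. There, 4 had an unadjusted p under 0.05 with a higher value in DKO, a direction and p found in 3.69% of all genes. Luc7l2, a U1-associated protein, averaged 3454 in WT and 5268 in DKO, a log2 difference of 0.62 ± 0.24 (limma adjusted p = 0.823). Pnisr, listed under its older name Sfrs18, had a log2 fold change of 0.57 ± 0.24 and the nuclear speckle scaffold Srrm2 one of 0.52 ± 0.22. In each of these 3 genes both DKO values lay above all WT values, as they did in 7 of the 25 and in 12.5% of all genes.

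Among 13 kinases, phosphatases and import factors of SR proteins, 5 were above and 8 below 0 (median −0.04). The split was 7 and 6 without WT replicate 1 or without WT replicate 3. It was 8 and 5 without DKO replicate 1 (median 0.06), and 6 and 7 without both WT replicate 2 and DKO replicate 1. Of the 4 nuclear CLK kinases, which phosphorylate the arginine-serine tail, Clk4, Clk1 and Clk2 had the smallest p-values of the list and Clk3 one of the largest. Clk4 was at 2097, 2272 and 2265 among WT libraries, with DKO at 3981 and 3473 (log2 fold change 0.75 ± 0.19, adjusted p = 0.823, limma). DESeq2 gave it an adjusted p of 0.043. Clk1 had a log2 fold change of 0.60 ± 0.25 and Clk2 one of 0.47 ± 0.21. Clk3 had 504, 299 and 506 among WT libraries, with DKO at 385 and 433, an overlap, and a log2 fold change of −0.06 ± 0.29 (limma adjusted p = 0.978), while the mainly cytoplasmic Srpk1 was at −0.04 ± 0.21.

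The proteins that often oppose SR proteins, the hnRNPs, were above 0 in 7 and below 0 in 19 of 26, with a median of −0.04. Hnrnpul2 was at −0.34 ± 0.20, Hnrnpdl at 0.27 ± 0.21 and Hnrnph1 at 0.25 ± 0.21. Of 25 factors of the U1, U2 and tri-snRNP particles, 5 were above and 20 below 0 (median −0.10), with Zrsr2, which recognises the 3′ splice site of minor introns, at 0.57 ± 0.22, and Sf3b2 and Sf3b5 of the U2 particle at −0.51 ± 0.22 and −0.74 ± 0.39. Sm proteins, the ring around spliceosomal RNAs, were above 0 in 4 of 7 (median 0.08), with Snrpd3 at −0.56 ± 0.34, Snrpd2 at −0.48 ± 0.35 and Snrpe at 0.38 ± 0.30. Decay and export factors were above 0 in 6 of 14 (median −0.10), with Smg6 at 0.45 ± 0.19, Smg1 at 0.66 ± 0.37 and Upf3b at −0.38 ± 0.24. No gene of these 4 lists passed over all genes (adjusted p of at least 0.823, limma). The direction of several medians rested on DKO replicate 1: without it the medians were 0.08 for hnRNPs, 0.02 for the particle factors and 0.03 for decay and export factors, while SR-related proteins were at 0.24 and SR members at 0.23. The hnRNP median was 0.01 without both WT replicate 2 and DKO replicate 1. The median of Sm proteins was −0.06 after the length and GC correction and −0.25 without DKO replicate 2.

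**Figure D4:**
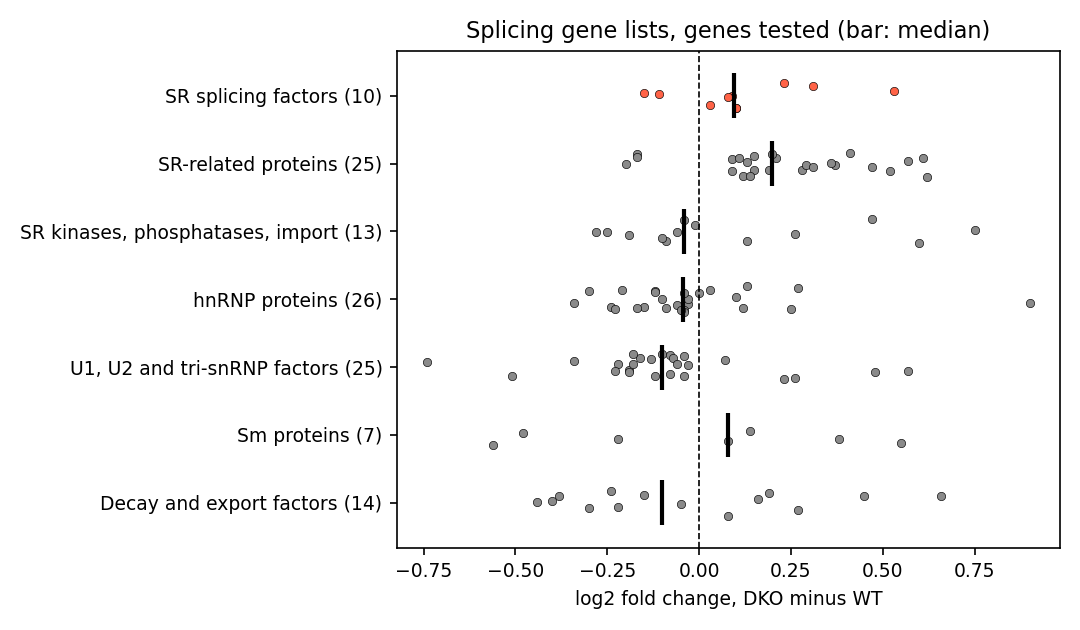
Log2 fold change (DKO minus WT) of each tested gene in the SR family and 6 lists of related genes, with the number tested in brackets and the median as a bar; the vertical scatter within a row carries no meaning. SR-related proteins have the highest median at 0.20 and SR splicing factors follow at 0.09, while the hnRNP and particle factor medians are at −0.04 and −0.10.

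The genes whose profile over the 5 libraries was most like the mean profile of the SR members were Fip1l1, Pcyt1a, Usp42, Strbp and Tardbp. Likeness was the root mean square difference of log2 deviations, which was 0.023 for Fip1l1 and 0.035 for Tardbp. Fip1l1, a polyadenylation factor, was at 2579, 2357 and 2277 in the WT libraries, against 2582 and 2651 in the DKO libraries. The RNA-binding protein gene Tardbp was at 3900, 3492 and 3476 for WT compared with 3644 and 4032 for DKO.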

How the data were processed

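Per the labels' protocols, sorted-cell RNA was amplified (NuGEN Ovation RNA-Seq System V2) before Illumina HiSeq2500 sequencing. TopHat2 2.0.4, Cufflinks 2.0.2, CASAVA 1.8.2 and build mm9 appear in the submitters' processing notes. Not given in the sources used here are the counting tool, the annotation and the use of strand. The table deposited by the authors has a normalized signal per gene and library, called normalized count here. Each value is a whole read count times 1 factor per library: divided by the smallest value of its library, 100% of values above 0 in 4 libraries and 99.995% in DKO replicate 2 were whole within 0.01. The authors' factors lay close to DESeq2's size factors (0.886 against 0.8867 in WT replicate 1, 0.987 against 0.9749 in WT replicate 3).

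Values were kept as deposited and tested with limma 3.58.1 (R 4.3.3), two-sided, on log2(value + 1) with a trend in the variance, for 13242 genes with a mean of at least 10, adjusted by Benjamini-Hochberg at 0.05. The fit had 3 residual and 5.92 prior degrees of freedom. EdgeR 4.0.16 and DESeq2 1.42.0 were run on the recovered reads. Exon lengths, GC content and overlaps came from GENCODE M21 (GRCm38), matched by name. The scripts were tested on simulated data. Members and gene lists were chosen with earlier results of these data known; ratios between members, promoter windows and motifs were chosen after the values were seen. All members are named, and up to 3 genes with the smallest p per list; Srpk1, Clk3, Rgs13, Cd79a and the genes overlapping or resembling members are named in addition, Clk3, Rgs13 and Cd79a after their values were seen. Intervals of fold changes are limma's 95% intervals. A naive B cell and an erythroid marker were not analysed here.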

Additional observations from a re-analysis of the deposited data

How the results depend on the processing

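No SR splicing factor passed the adjusted threshold under any of the 18 alternatives, which changed the pseudocount, the minimum value, the scaling, the tool, the weights, the libraries used, the replicate number as a block, or a correction for length and GC content. Over all genes, the count of 0 became 36 with the replicate block, 29 with DESeq2, and 2 each with library weights and without both WT replicate 2 and DKO replicate 1; it was 0 to 1 when single libraries were left out. The labels do not say that libraries of the same replicate number are paired. Deviations from the group means of same-numbered libraries correlated at 0.005 and −0.28. With 2 DKO libraries, their deviations are mirror images of each other, so these values cannot decide on pairing. The block also leaves WT replicate 3 out of the contrast. Under it 0 SR members passed and their median was 0.07. That median, 0.09 in the main fit, ran from 0.03 without WT replicate 2 to 0.23 without DKO replicate 1 when single libraries were left out.

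Srsf3 (0.24 to 0.36), Srsf5 (0.38 to 0.76) and Srsf11 (0.11 to 0.36) kept a log2 fold change above 0 under all 18 alternatives, and Srsf5 had an unadjusted p under 0.05 in 2 of them. Both DKO values of these members lay above all WT values. Leaving out libraries, the block, the pseudocount or the minimum value could therefore not change their sign. The other 7 changed sign at least once, with 13 sign changes in all. With single libraries left out, the ranges were −0.23 to 0.41 for Srsf1, −0.10 to 0.29 for Srsf2, −0.05 to 0.34 for Srsf4, −0.13 to 0.16 for Srsf7 and −0.40 to 0.10 for Srsf9. Without both WT replicate 2 and DKO replicate 1, Srsf4 was at −0.10, Srsf6 at 0.04, Srsf7 at −0.0023 and Srsf10 at −0.02. After the length and GC correction, Srsf1 and Srsf7 were at −0.02. The cause was not tested. In an alternative added after seeing the data, the log2 difference of the Srsf5 to Srsf6 ratio ran from 0.51 to 0.82 with single libraries left out, that of Srsf3 to Srsf7 from 0.17 to 0.42 and that of Srsf5 to Srsf4 from 0.10 to 0.81. Fits with 1 DKO library assume that it varies like the WT libraries. Depth limits Srsf9 most, with 159 to 226 reads per library.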
